A study of Mus musculus with 88 samples.

Results

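Medium spiny neurons are the projection neurons of the striatum, and their marker genes were followed in 3 brain regions that do not include the striatum. The 9 genes were Drd1, Drd2, Adora2a, Penk, Tac1, Ppp1r1b, Pde10a, Rgs9 and Six3. They were found by matching the Ensembl identifiers of the tables to these symbols in the GRCm38 annotation, and they are 9 of the 48811 genes that the 3 tables hold between them. All 9 were present in the table of the bed nucleus of the stria terminalis (BNST) and passed its filter on low counts. In the tables of the medial prefrontal cortex (mPFC, 18946 genes) and the ventral hippocampus (vHPC, 19559 genes) 8 of the 9 were listed, and Six3 was not.

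The study exposed male mice of the strains labelled C57BL/6Crl (B6) and DBA/2Crl (D2), named C57BL/6NCrl and DBA/2NCrl in its methods, to chronic social defeat stress (CSDS), in which a mouse is repeatedly defeated by an aggressor. Defeated mice were classed by a social avoidance test as susceptible (avoiding) or resilient, and controls shared a cage with another control. All mice were 8 weeks old at dissection, 6 to 8 days after the last defeat, and each library was bulk RNA from 1 region of 1 mouse. The mPFC had 6 B6 control, 6 B6 resilient, 6 B6 susceptible, 6 D2 control and 8 D2 susceptible mice. The BNST had 5 mice in each of these 5 groups and 3 D2 resilient mice. The vHPC had 6 B6 control, 8 B6 resilient, 3 B6 susceptible, 6 D2 control and 5 D2 susceptible mice. Phenotype was assigned after the stress and not at random, so the groups differ by behaviour as well as by exposure.

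Medium spiny neurons are GABAergic and come in 2 kinds. Those of the direct pathway carry the dopamine receptor D1 (Drd1), which raises cAMP, and release substance P, made from Tac1. Those of the indirect pathway carry the dopamine receptor D2 (Drd2), which lowers cAMP, and an adenosine receptor (Adora2a), and make enkephalin from Penk, while the transcription factor Six3 takes part in their development. Both kinds contain DARPP-32 (Ppp1r1b), a phosphatase inhibitor that integrates dopamine signals, the phosphodiesterase Pde10a, which breaks down cyclic nucleotides, and Rgs9, which shortens signalling by D2-type receptors together with its partner Gnb5. None of these genes is exclusive to the striatum: cortical and hippocampal interneurons make Penk and Tac1, and deep cortical neurons make Drd1.

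Promoter windows of the members the results turn on are shown because the 2 dopamine receptors act on cAMP in opposite directions and because members moved together between mice of the mPFC and BNST. RefSeq promoter windows (GRCm38.p6) matched 6 of the 9 genes, namely all but Penk, Adora2a and Ppp1r1b. The 250 bases before each start were searched on both strands for the cAMP response element TGACGTCA, for its shorter form TGACG, which lies within the longer one, and for the TATA box TATAAA. Of 32851 windows of this length, 1.5% held TGACGTCA, 17.8% held TGACG and 12.4% held TATAAA. The Tac1 window held TGACG on the reverse strand at 193 to 197 and at 39 to 43 bases before the start. The Rgs9 window held TATAAA. The farther Tac1 match and the Rgs9 match are in capitals here, and the nearer Tac1 match lies outside the stretch shown. The windows of Drd1, Drd2, Pde10a and Six3 held none of the 3. A match describes letters only. The Tac1 stretch is the portion of its window before the annotated gene (chr6:7554811-7554878, plus strand), the Rgs9 window is chr11:109298182-109298431 (minus strand) and the Drd2 window is chr9:49340153-49340402 (plus strand).
Tac1: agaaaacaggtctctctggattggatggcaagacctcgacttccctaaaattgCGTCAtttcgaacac
Rgs9: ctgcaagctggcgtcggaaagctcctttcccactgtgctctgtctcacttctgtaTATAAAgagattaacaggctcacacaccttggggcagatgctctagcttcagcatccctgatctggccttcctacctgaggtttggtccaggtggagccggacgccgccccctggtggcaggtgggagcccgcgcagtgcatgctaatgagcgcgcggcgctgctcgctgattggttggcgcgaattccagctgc
Drd2: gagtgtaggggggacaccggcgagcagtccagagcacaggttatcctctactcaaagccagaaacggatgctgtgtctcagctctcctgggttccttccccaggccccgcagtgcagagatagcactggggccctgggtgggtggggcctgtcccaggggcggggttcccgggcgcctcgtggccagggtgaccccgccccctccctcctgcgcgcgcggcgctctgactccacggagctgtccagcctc

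Levels are given as log2 CPM, the counts scaled to library size on a log2 scale, and per kilobase of exon where genes are compared with each other. The 3 tables were normalized separately from different library kits, so levels in different regions stand side by side without a test. In the BNST dissections the members were abundant, with mean log2 CPM per kilobase of 8.63 for Penk, 7.63 for Ppp1r1b, 6.37 for Pde10a, 5.85 for Rgs9, 5.82 for Drd2, 5.11 for Drd1, 4.92 for Adora2a, 4.68 for Six3 and 4.35 for Tac1 (n = 28). In the mPFC the order was Penk 5.01, Ppp1r1b 3.62, Pde10a 3.52, Drd1 2.81, Rgs9 2.1, Tac1 1.94, Adora2a -0.26 and Drd2 -1.35 on the same scale (n = 32). In the vHPC it was Pde10a 3.46, Penk 1.90, Ppp1r1b 1.77, Drd1 1.49, Tac1 1.24, Rgs9 1.17, Adora2a -0.98 and Drd2 -1.34 (n = 28). The receptors of the indirect pathway were thus the lowest members in the mPFC and vHPC, while in the BNST they lay in the middle and lower part of the order.

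Several neighbours in these orders differed within a mouse by less than the SD of that difference over mice. Their order could change from mouse to mouse. In the mPFC Ppp1r1b exceeded Pde10a by 0.09 ± 0.26 (SD) log2 CPM per kilobase and in 19 of 32 mice, and Rgs9 exceeded Tac1 by 0.16 ± 0.57 and in 20 of 32. In the BNST Rgs9 and Drd2 differed by 0.03 ± 0.30, with Rgs9 higher in 14 of 28 mice. Drd1 and Adora2a, Adora2a and Six3, and Six3 and Tac1 also differed by less than the SD. In the vHPC the 5 genes from Penk to Rgs9 formed such a run, as did Adora2a and Drd2. Within that run Drd1 still exceeded Tac1 in 23 of 28 mice (0.25 ± 0.28).

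Genes named for each region's own tissue were read beside the members. In the mPFC and vHPC the glutamate transporter gene Slc17a7, a marker of excitatory forebrain neurons, had median levels of 7.78 and 9.37 log2 CPM. In the BNST Slc17a7 had a median of 3.03 but ranged from -2.99 to 9.01. Of the 8 listed genes of BNST neurons in the fit, the somatostatin gene Sst was highest, with a median of 6.35. Its medians in the mPFC and vHPC were 5.45 and 5.54. Among the other BNST genes the stress neuropeptide Crh had a median of 1.53, and the aromatase gene Cyp19a1 did not pass the filter. The striatal gene Rasd2, which is no member, had a median of 8.11 log2 CPM in the BNST. BNST libraries held 11825757 to 25793910 counts.

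The members varied between mice of a group far more than a typical gene did in the mPFC. Their standard deviation (SD) within groups ran from 0.40 (Pde10a) to 1.11 (Drd2) log2 CPM, with a median of 0.56, against a median of 0.15 over all genes, a ratio of 3.71 (jackknife SE 0.447 over mice). From the lowest to the highest mouse, Drd2 spanned 15.3-fold, Adora2a 13.6-fold and Rgs9 6.69-fold in the mPFC. In the BNST the median SD of the members was 0.58 against 0.42 over all genes, a ratio of 1.38 (SE 0.253), and Ppp1r1b spanned 37.3-fold between mice. In the vHPC it was 0.25 against 0.14, a ratio of 1.77 (SE 0.172), but Rgs9 (0.10) and Pde10a (0.07) varied less there than the median gene. Each member was also set beside 500 genes of like level. In the vHPC Pde10a then equalled their median SD (0.07), and Rgs9 stayed below it (0.13). In the BNST these medians were 0.28 to 0.32, lower than the 0.42 over all genes. Every BNST member exceeded its own median, with SDs of 0.46 to 0.94. In the mPFC the medians were 0.09 to 0.36, and every member exceeded its own there too.

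**Figure D1:**
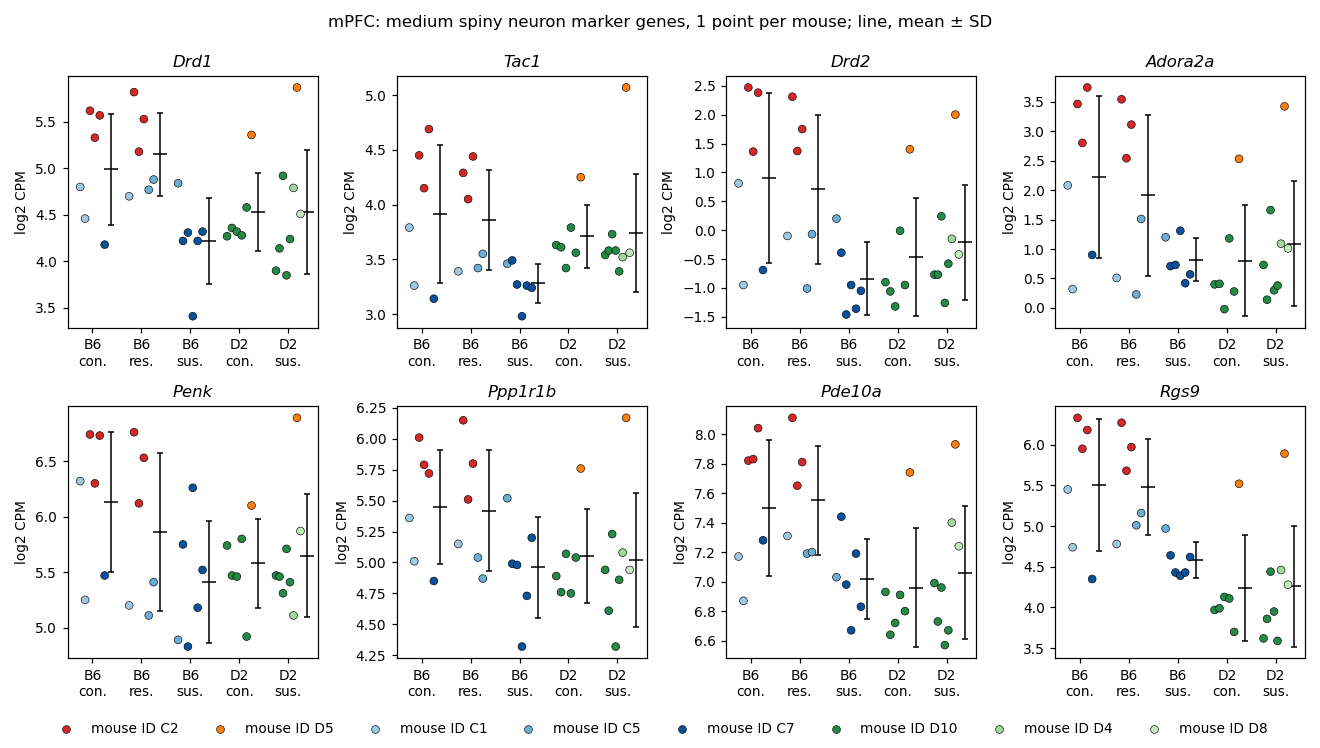
Levels of the 8 listed marker genes in the mPFC, in log2 CPM on the vertical axis, for each of 32 mice by strain and phenotype (con., control; res., resilient; sus., susceptible), with the mean ± SD beside the points. In Drd2 and Adora2a the B6 control and resilient mice spread over a wide range, and the B6 susceptible mice lie at its lower end in Drd2, with some below it, and within its lower portion in Adora2a.

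In the mPFC of B6 mice, the question of a change with susceptibility gave lower mean levels of all 8 listed members in susceptible mice than in controls, but none passed the test, at a background of 2.22% of all 18946 genes. Drd2 ranged from -0.95 to 2.47 log2 CPM with a median of 1.08 in controls, from -1.01 to 2.31 (median 0.65) in resilient mice, and from -1.46 to 0.20 (median -1.0) in susceptible mice. All 6 susceptible mice lay below the control mean, yet the groups overlapped. The difference between susceptible and control mice was -1.73 ± 0.62 (SE) on the log2 scale, with an adjusted p of 0.125 in limma, or a level 0.301 times that of controls (95% interval 0.125 to 0.726 without adjustment for the number of genes). Adora2a ranged from 0.32 to 3.74 (median 2.44) in controls and from 0.42 to 1.31 (median 0.72) in susceptible mice. Here the susceptible mice lay together, inside the wide range of the controls, and the difference was -1.39 ± 0.61 with an adjusted p of 0.212 in limma.

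The remaining 6 members in that comparison, the direct-pathway genes and those of both pathways among them, differed by less. Log2 differences were -0.92 ± 0.36 for Rgs9, -0.77 ± 0.30 for Drd1, -0.73 ± 0.32 for Penk, -0.63 ± 0.26 for Tac1, -0.50 ± 0.26 for Ppp1r1b and -0.48 ± 0.23 for Pde10a. Adjusted p values over the 8 ran from 0.125 to 0.313 in limma, and 7 of the 8 had an unadjusted p under 0.05, as did 18.2% of all genes. The median over the 8 was -0.75, beside 0.00 over all genes. Bulk tissue was measured. Fewer cells of a type, less RNA per cell and less striatal tissue in the dissection cannot be told apart in any of these values. The p values measure the spread between these mice only.

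Susceptible and resilient B6 mice differed in much the same way in the mPFC, though the susceptible mice are shared with the comparison above. All 8 members had lower means in susceptible mice, from -1.55 ± 0.62 for Drd2 to -0.45 ± 0.32 for Penk, with adjusted p values of 0.0897 to 0.461 in limma. None was called, at a background of 2.02%, and 5 had an unadjusted p under 0.05. The smallest adjusted p, 0.0897, belonged to Drd1, with a difference of -0.93 ± 0.30, and its groups overlapped. Resilient and control B6 mice differed by -0.31 to 0.15, with 0 of 8 members called by limma, 0 of 8 at an unadjusted p under 0.05 and a background of 0%.

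The high mice of the mPFC shared the first portion of their identifiers, whose meaning the labels do not give. Averaged over the 8 members, the 6 mice with the prefix C2 ranged from 4.76 to 5.41 log2 CPM (median 5.24), and the 2 D5 mice stood at 4.83 and 5.41. The 6 C7 mice ranged from 3.51 to 3.85, the 3 C5 mice from 3.72 to 4.06, the 3 C1 mice from 3.62 to 4.47, and the 10 D10 mice from 3.38 to 4.06. No C2 or D5 mouse overlapped with a mouse of the other prefixes in this mean. The C2 mice were 3 B6 controls and 3 B6 resilient mice and included no susceptible mouse, whereas 5 of the 6 susceptible B6 mice were C7. The only C7 control had a member mean of 3.69, within the range of the C7 susceptible mice. The D5 mice were 1 D2 control and 1 D2 susceptible mouse.

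Without the C2 and D5 mice, a choice made after their values were seen, the difference between susceptible and control B6 mice in the mPFC shrank for the members. Drd2 was then at -0.56 ± 0.40, Adora2a at -0.28 ± 0.37, Rgs9 at -0.27 ± 0.21 and Drd1 at -0.26 ± 0.24, with adjusted p values of 0.75, 0.90, 0.78 and 0.822 in limma. Penk was at -0.27 ± 0.27, and Tac1, Ppp1r1b and Pde10a were between -0.12 and -0.08. With the prefix as a term of the model instead, the values were -0.01 ± 0.46 for Drd2, -0.12 ± 0.46 for Adora2a and -0.04 ± 0.25 for Drd1. They were -0.22 ± 0.33 for Penk, -0.20 ± 0.17 for Pde10a, -0.03 ± 0.21 for Rgs9 and 0.00 ± 0.18 for Tac1, and Ppp1r1b turned to 0.20 ± 0.23. Prefix and phenotype overlap so closely in these mice that their contributions cannot be told apart.

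In D2 mice the mPFC showed no such ordering of the groups. Drd2 ranged from -1.32 to 1.40 (median -0.92) in D2 controls and from -1.26 to 2.00 (median -0.50) in D2 susceptible mice, and the highest mouse of each group was its D5 mouse. Susceptible minus control differences ran from -0.03 to 0.29 over the 8 members, with 0 called by limma, 0 at an unadjusted p under 0.05 and a background of 0%. The difference in response between the strains (D2 minus B6) was positive for all 8 members, from 0.47 to 1.99, but 0 passed limma's test, 1 had an unadjusted p under 0.05, and the background was 0%. Adjusted p values for it ran from 0.502 to 0.722.

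The strain comparison of mPFC controls called 1 of 8 members, at a background of 27.8% of all genes. Rgs9 fell in D2 controls, ranging from 3.70 to 5.52 log2 CPM (median 4.05), compared with B6 controls (4.35 to 6.33, median 5.7). Of the 6 D2 controls 5 lay below the B6 mean, and the groups overlapped. The difference was -1.26 ± 0.36, with an adjusted p of 0.00875 in limma, or 0.416 times the B6 level (95% interval 0.250 to 0.693). Without the C2 and D5 mice it was -0.87 ± 0.22 with an adjusted p of 0.00862. The other 7 members had negative differences from -0.20 (Tac1) to -1.42 (Adora2a, adjusted p 0.0821). The call count rested in part on single mice: leaving out B6 control replicate 2 or D2 control replicate 6 called 4 members, leaving out B6 control replicate 6 called 3 and leaving out D2 susceptible replicate 7 called 2, with Drd2 at -1.74, -1.74 and -1.69 and Adora2a at -1.80, -1.77 and -1.68 under the former 3.

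Further striatal genes from 3 lists were set beside the members in the mPFC. Of 25 tested, 0 were called by limma between susceptible and control B6 mice (background 2.22%), 21 had negative differences and the median was -0.14. All 15 genes expressed in both kinds of striatal projection neuron, among them the cyclase gene Adcy5, had negative differences (median -0.23). Of the 10 further genes of the direct or indirect pathway 6 did. Between control mice of the strains, 4 of the 25 fell in D2, among them Gpr6 (-1.77), Lrrc10b (-1.62) and Rxrg (-0.83). Another 3 rose (Chrm4 0.46, Plxdc1 0.41 and Grik3 0.33), and the share called was near the background of 27.8%. Of 10 partners in dopamine and cAMP signalling, 0 were called by limma in the susceptible comparison and 1 fell in the strain comparison, the protein kinase A subunit gene Prkaca (-0.16).

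Markers of other cells moved along with the members in the mPFC. The 7 oligodendrocyte genes encode myelin proteins and their partners. Of these, 6 fell in B6 susceptible mice against controls (background 2.22%) and 7 fell in D2 against B6 controls (background 27.8%). Their summed level ranged from 10.55 to 11.49 log2 CPM in B6 controls, 10.64 to 11.39 in resilient and 10.08 to 10.701 in susceptible B6 mice, 9.97 to 10.52 in D2 controls and 9.75 to 10.62 in D2 susceptible mice. The 2 listed cholinergic genes, Chat and Slc5a7, summed to 1.68 to 3.14, 1.58 to 3.2, 0.81 to 2.15, 1.37 to 2.85 and 1.46 to 3.70 in the same groups. The 7 cortical excitatory genes summed to 8.91 to 9.81 over all mice. Identifier prefix and phenotype overlap for the oligodendrocyte genes too. Averaged over these genes, the C2 mice, none of them susceptible, ranged from 7.12 to 7.39 log2 CPM. The C1 and C5 mice ranged from 6.51 to 7.23. The only C7 control stood at 6.37, between the lowest (5.87) and the highest C7 susceptible mouse. Prefix and phenotype cannot be told apart here either. The part of these markers in the members' values was not tested.

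**Figure D2:**
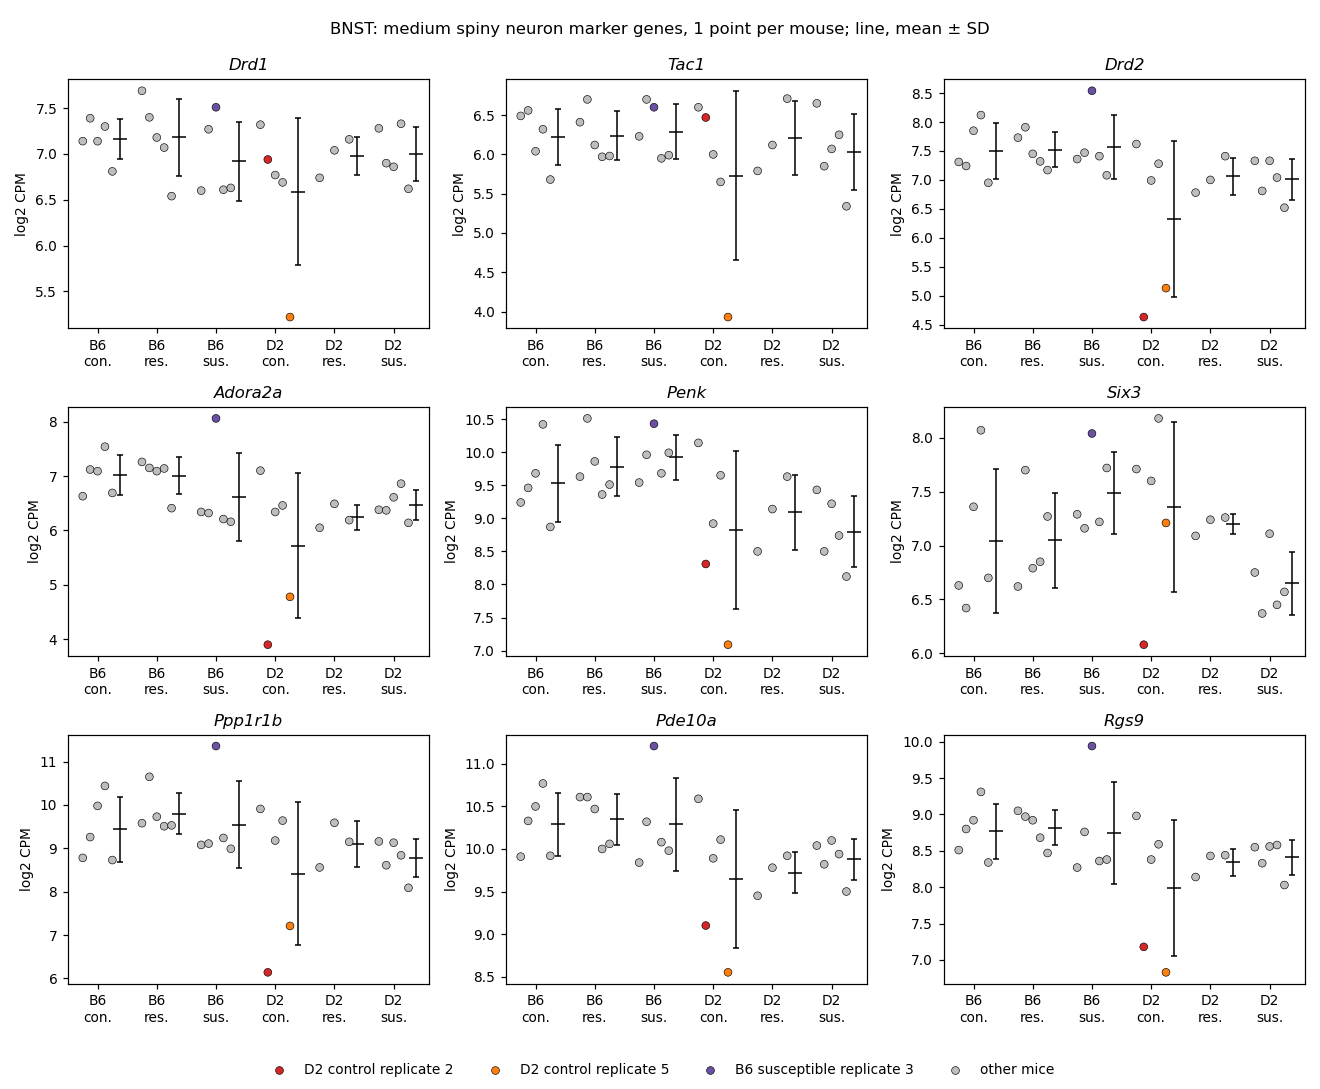
Levels of the 9 marker genes in the BNST, in log2 CPM after TMM scaling on the vertical axis, for each of 28 mice by strain and phenotype, with the mean ± SD beside the points. In most panels 1 or 2 D2 control mice lie below all the others, and 1 B6 susceptible mouse lies highest in Drd2, Adora2a, Ppp1r1b, Pde10a and Rgs9.

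In the BNST no member was called by edgeR in any of the 9 comparisons. In B6 mice, differences ran from -0.07 to 0.27 between resilient and control mice, from -0.21 to 0.36 between susceptible and control mice and from -0.25 to 0.43 between susceptible and resilient mice. The backgrounds were 0%, 0% and 0.00571% of 17515 genes, and 0 of 9 members had an unadjusted p under 0.05 in each. In D2 mice, differences ran from -0.31 to 0.34 between resilient and control mice, from -0.83 to 0.37 between susceptible and control mice and from -0.52 to 0.24 between susceptible and resilient mice, at backgrounds of 0%, 0% and 0%. Of these, 1 had an unadjusted p under 0.05, Six3 in susceptible against control mice.

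Six3 in the BNST of D2 mice ranged from 6.08 to 8.18 log2 CPM (median 7.60) in controls, and stood at 7.09, 7.24 and 7.26 in resilient mice and at 6.37, 6.45, 6.57, 6.75 and 7.11 in susceptible mice. All 5 susceptible mice lay below the control mean, and the ranges overlapped. The difference was -0.83 ± 0.31 with an adjusted p of 0.635 in edgeR. In B6 mice the susceptible minus control difference was 0.36 ± 0.31, and the difference between the strains' responses was -1.19 ± 0.43 with an adjusted p of 0.247 in edgeR. Both strain differences in response had a background of 0%, 0 of 9 members were called by edgeR in each, and 1 member (Six3) had an unadjusted p under 0.05 in susceptible mice and 0 in resilient mice. DESeq2 also called 0 members in all 9 comparisons, while for the strain difference in the response of susceptible mice library sizes without TMM called Drd1 and a voom, ComBat and limma fit called Drd1 (1.22) and Adora2a (1.64).

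Between BNST controls of the strains, 8 of 9 members had lower means in D2 mice (median -0.51, beside 0.04 over all genes), and 0 were called by edgeR at a background of 2.51%, with 2 at an unadjusted p under 0.05. Adora2a stood at 3.90, 4.78, 6.34, 6.46 and 7.10 log2 CPM in D2 controls, against a mean of 7.02 ± 0.37 (SD, n = 5) in B6 controls. The difference was -0.93 ± 0.40, and for Drd2 it was -0.81 ± 0.38. Both rested on D2 control replicates 2 and 5. Their Drd2 levels were 4.63 and 5.13 log2 CPM, against 7.62, 6.99 and 7.28 in the other 3 D2 controls, and their Pde10a levels were 9.10 and 8.55, against a group median of 9.89.

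These 2 D2 controls were not alike in every member. Drd1 and Tac1, the direct-pathway genes, stood at 6.94 and 6.47 in replicate 2, within the range of the other D2 controls for Drd1, and at 5.22 and 3.93 in replicate 5, the lowest of all 28 mice. Replicate 5 also had the highest mean over the thalamic neuron genes, 7.20 log2 CPM against 5.77 in the next mouse, and a mean of 1.59 over the BNST neuron genes, against 3.54 in replicate 2. Such low BNST neuron means were also found in D2 control replicate 4 (1.57) and D2 susceptible replicate 5 (1.65), whose member means were higher. Without both mice, a choice made after their values were seen, the strain difference was -0.38 ± 0.34 for Adora2a, -0.24 ± 0.29 for Drd2, -0.21 ± 0.24 for Drd1 and 0.68 ± 0.29 for Six3, and no member passed the test. The Six3 difference between susceptible and control D2 mice was then -1.18 ± 0.29, with an adjusted p of 0.278 in edgeR.

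At the other end, B6 susceptible replicate 3 had the highest BNST levels of 5 members. It stood at 8.54 log2 CPM for Drd2, 8.06 for Adora2a, 11.36 for Ppp1r1b, 11.21 for Pde10a and 9.94 for Rgs9. Its mean over the 15 further projection neuron genes was 9.16, and its mean over the BNST neuron genes was 2.05. The dissections differed in other markers as well: the 8 BNST neuron genes summed to a median of 7.22 and at most 9.03 log2 CPM over the 28 mice, the 4 cholinergic genes to 4.98 to 7.81, the 7 cortical excitatory genes to 7.00 to 9.95 and the 7 oligodendrocyte genes to 10.96 to 13.36. Their part in the members' levels, and that of striatal tissue taken along in the dissection, was not tested. Of the 25 further striatal genes and 12 signalling partners, 0 were called by edgeR in any of the 9 comparisons.

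**Figure D3:**
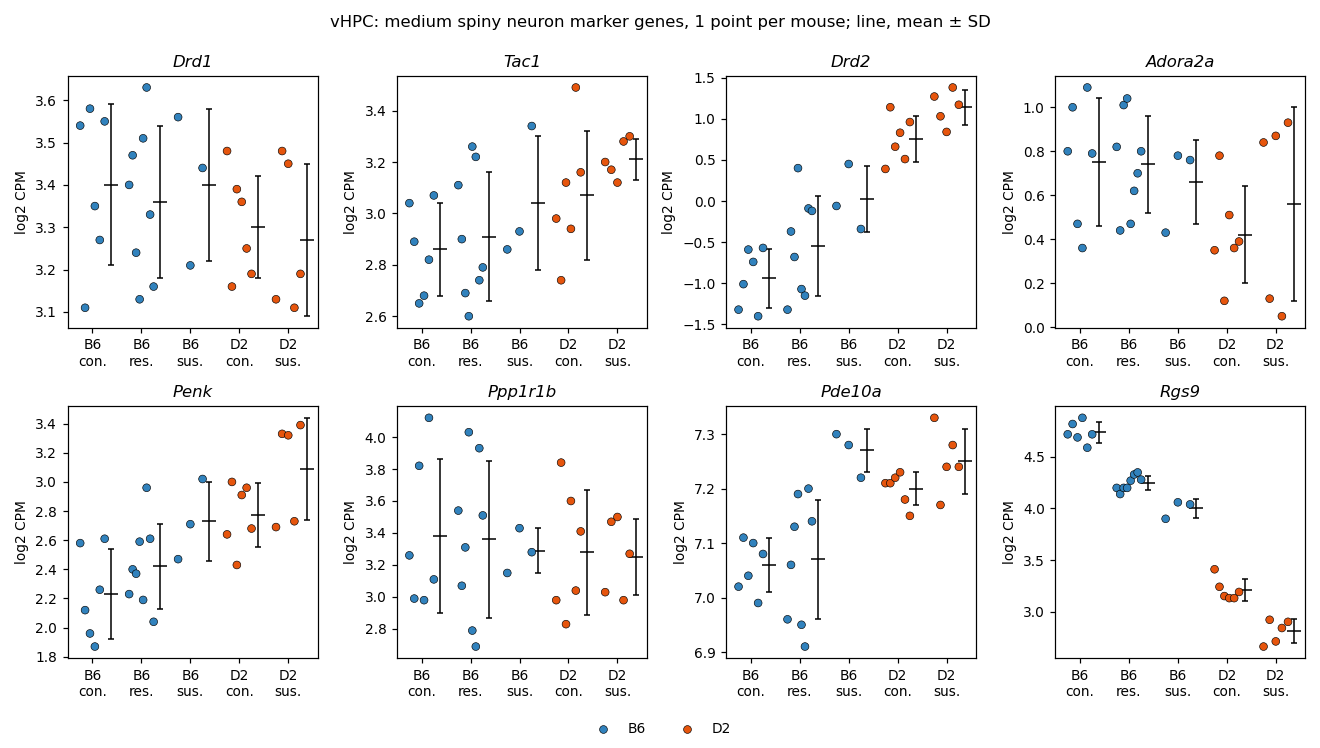
Levels of the 8 listed marker genes in the vHPC, in log2 CPM on the vertical axis, for each of 28 mice by strain and phenotype, with the mean ± SD beside the points. Rgs9 steps down from B6 control through resilient to susceptible mice and again to the D2 groups without overlap, while Drd2 is higher in D2 than in B6 controls.

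In the vHPC, Rgs9 was the 1 member called in every comparison of the groups themselves. Its levels ranged from 4.59 to 4.88 log2 CPM (median 4.72) in B6 controls, from 4.14 to 4.35 (median 4.24) in resilient mice and stood at 3.90, 4.04 and 4.06 in the 3 susceptible mice. In D2 mice they ranged from 3.13 to 3.41 (median 3.17) in controls and from 2.66 to 2.92 (median 2.84) in susceptible mice. No 2 of the 5 groups overlapped. Rgs9 fell by 0.49 ± 0.05 on the log2 scale in resilient against control B6 mice (adjusted p 3.07e-07 in limma) and by 0.74 ± 0.07 in susceptible against control B6 mice (adjusted p 1.77e-08). Susceptible B6 mice differed from resilient ones by -0.24 ± 0.07 (adjusted p 0.0122 in limma), and susceptible D2 mice differed from D2 controls by -0.40 ± 0.06 (adjusted p 9.61e-05). The difference between the strains' responses to susceptibility was 0.33 ± 0.09, with an adjusted p of 0.0858 in limma, and it passed only when D2 control replicate 1 was left out (adjusted p 0.0406).

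These vHPC calls were made on a background in which many genes moved. Of all genes tested, 10.84% were called between resilient and control B6 mice, 40.6% between susceptible and control B6 mice, 27.6% between susceptible and resilient B6 mice, 4.28% between susceptible and control D2 mice and 0.782% for the difference in response. The members called were 1, 4, 2, 1 and 0 of 8 in the same order, and 2 of 8 had an unadjusted p under 0.05 for the difference in response, as did 18.4% of all genes. Between control mice of the strains, 4 of 8 members were called at a background of 59.3%. Rgs9 in D2 controls was 0.347 times the B6 level (95% interval 0.320 to 0.376), a difference of -1.53 ± 0.06 with an adjusted p of 8.96e-18 in limma. All 6 D2 controls lay below every B6 control.

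Library preparation sets did not cross the B6 groups in the vHPC. No set held both a B6 control and a defeated B6 mouse, so set and group could be separated only through the other groups and the authors' earlier adjustment for these sets. Of the 6 B6 controls, only replicate 2 was in a set with another group, D2 susceptible mice. Of the 5 D2 susceptible mice, only replicate 5 was in a set with a D2 control. With the set as a further term of the model, differences from B6 controls and between the D2 groups therefore rest on these single mice. Rgs9 then differed by -0.80 ± 0.22 between resilient and control B6 mice and by -0.99 ± 0.21 between susceptible and control B6 mice. It differed by -0.23 ± 0.15 between susceptible and control D2 mice and by -1.81 ± 0.21 between control mice of the strains. The calls for Drd2, Penk and Pde10a given below were not made in that fit. Neither were the Rgs9 calls for resilient against control B6 mice and for susceptible against control D2 mice. The Rgs9 call for susceptible against resilient B6 mice was also not made, with a difference of -0.18 ± 0.10. Between susceptible and control B6 mice Drd2 was at 1.05 ± 0.89 and Pde10a at 0.17 ± 0.17, close to the values without the set but with wider errors, and Penk was smaller, at 0.13 ± 0.58. Between control mice of the strains they stood at 1.73 ± 0.89, 0.08 ± 0.17 and 0.04 ± 0.58 for Drd2, Pde10a and Penk. Between susceptible and resilient B6 mice Pde10a was at 0.22 ± 0.08.

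Drd2 was the member that rose most in the vHPC. It ranged from -1.40 to -0.57 log2 CPM (median -0.87) in B6 controls and stood at -0.34, -0.06 and 0.45 in the 3 susceptible mice, with no overlap. Resilient B6 mice spanned both, from -1.32 to 0.40 (median -0.53). The rise in susceptible against control B6 mice was 0.96 ± 0.29 (adjusted p 0.0105 in limma), and without B6 susceptible replicate 2 it was 0.74 and not called. D2 controls had a median of 0.75 and a lowest level of 0.39, above every B6 control, a rise of 1.69 ± 0.23 or 3.22-fold (adjusted p 1.04e-06). These values lie near 1 CPM and rest on few reads.

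The other changes in the vHPC were smaller. Pde10a rose by 0.21 ± 0.06 in susceptible against control B6 mice (adjusted p 0.00453 in limma), and its 3 susceptible mice lay above all 6 controls. It also rose by 0.20 ± 0.05 against resilient mice (adjusted p 0.0112 in limma) and by 0.14 ± 0.05 in D2 against B6 controls (adjusted p 0.00914). The call against resilient mice was lost without B6 susceptible replicate 1 (0.18) or replicate 2 (0.19), and the Rgs9 call in that comparison was lost without replicate 1 (-0.20), so the count of called members went from 2 to 0 without replicate 1. Penk rose by 0.50 ± 0.20 in susceptible against control B6 mice (adjusted p 0.0484 in limma) and by 0.53 ± 0.16 in D2 against B6 controls (adjusted p 0.00668), with overlapping groups in both. Its call in B6 mice was lost in 16 of the 28 fits that left out 1 library, with adjusted p values up to 0.234 without B6 susceptible replicate 3. Drd1, Tac1, Adora2a and Ppp1r1b were called in no vHPC comparison with all libraries. Adora2a was called between control mice of the strains without B6 control replicate 3 (-0.39, adjusted p 0.0461 in limma), B6 control replicate 4 (-0.41, adjusted p 0.0305) or D2 control replicate 2 (-0.41, adjusted p 0.0347). The levels of Drd1 ranged only from 3.11 to 3.63 over all 28 mice.

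**Figure D4:**
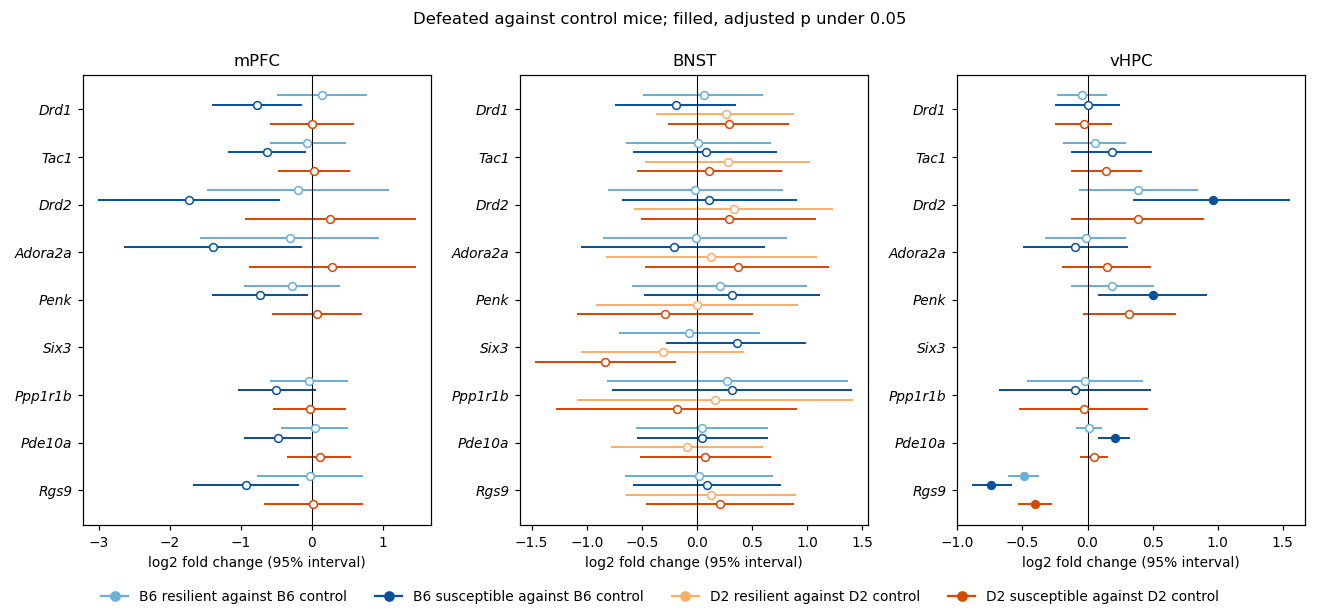
Log2 fold changes of the marker genes in the comparisons of each region, with 95% intervals not adjusted for the number of genes. In the mPFC all members lie below 0 in the susceptible B6 comparison with wide intervals, and in the vHPC the Rgs9 intervals are narrow and lie below 0.

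Genes that act with the members were called in both directions in the vHPC, at shares near those of all genes given above. Gnb5, whose product forms a complex with Rgs9, fell by 0.33 in susceptible against control B6 mice and by 0.45 in D2 against B6 controls. Among the 10 signalling partners tested, 3 fell and 1 rose in susceptible against control B6 mice, the riser being the phosphodiesterase gene Pde2a (0.35), and Drd5 was among those that fell (-0.24). Of 23 further striatal genes, 7 rose and 2 fell in that comparison, 0 rose and 3 fell in resilient against control mice, 6 rose and 1 fell in susceptible against resilient mice, and 9 rose and 4 fell in D2 against B6 controls, where the backgrounds were 40.6%, 10.84%, 27.6% and 59.3%. The risers in susceptible against control B6 mice included Plxdc1 (1.01), Grik3 (0.77) and Rxrg (0.42), and the 2 genes that fell were Lrrc10b (-0.57) and Rarb (-0.43). In D2 susceptible mice against D2 controls limma called 0 of the 23.

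Markers of other cells moved strongly in the same vHPC comparisons. All 7 oligodendrocyte genes fell in susceptible against control B6 mice (median -0.84, background 40.6%) and in D2 against B6 controls (median -1.28, background 59.3%). Of them, 3 fell in resilient B6 mice (background 10.84%) and 1 (Mobp, -0.45) in D2 susceptible mice (background 4.28%). Their summed level ranged from 11.54 to 11.72 log2 CPM in B6 controls, 11.08 to 11.70 in resilient and 10.79 to 10.99 in susceptible B6 mice, 10.23 to 10.88 in D2 controls and 10.01 to 10.41 in D2 susceptible mice, the order in which the Rgs9 levels also fell. Of 9 choroid plexus and ependymal genes, 6 fell in susceptible B6 mice and 9 in D2 controls, with sums of 5.82 to 11.04, 5.46 to 10.17, 5.02 to 6.5, 4.85 to 9.07 and 3.93 to 7.18 in the same groups. Of 7 cortical excitatory genes, 6 rose in susceptible B6 mice, with sums of 9.67 to 9.75 in B6 controls and 9.93 to 9.99 in susceptible mice. The called hippocampal neuron genes with the largest changes in that comparison, Tdo2, Dsp (-0.78) and Spink8 (-0.65), fell. The summed levels of the hippocampal list overlapped between these groups. Of the GABA neuron genes, Slc32a1 (0.68) and Gad2 (0.26) rose. The part of all these lists in the members' values was not tested.

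Whether the 2 kinds of marker gene went up and down together was described over mice, after removing group means, with the mean of Drd1 and Tac1 set against the mean of the indirect-pathway members. In the mPFC Pearson's r was 0.89 and Spearman's rho 0.82 over 32 mice, and 0.85 and 0.78 without the 2 mice farthest from the median. Those 2 were the D5 mice, and the C2 mice, also high in the members, stayed in. The part of the identifier prefix in the mPFC correlations was not tested. In the BNST r and rho were 0.51 and 0.54 over 28 mice and 0.24 and 0.45 without the 2 farthest. Those 2 were D2 control replicates 1 and 5, so D2 control replicate 2 stayed in. Leaving out single BNST mice gave r from 0.34 to 0.79 (jackknife SE 0.34), so r there depended on single mice in both directions. In the vHPC r and rho were -0.48 and -0.45. Both means come from the same libraries in each case, and so share depth and cell makeup.

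**Figure D5:**
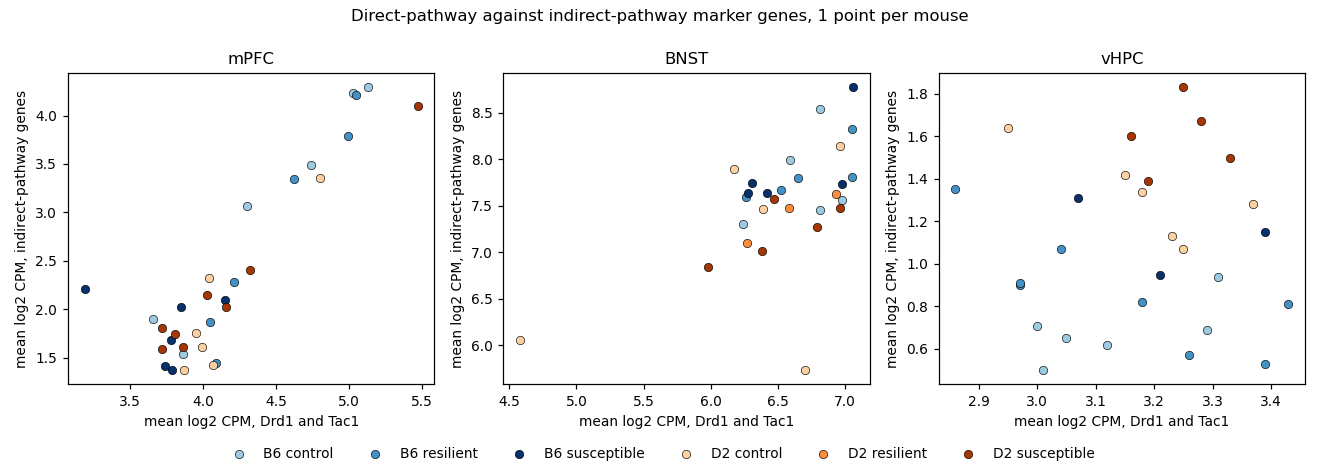
Mean log2 CPM of the direct-pathway members (Drd1 and Tac1, horizontal axis) against that of the indirect-pathway members listed in the region (vertical axis), 1 point per mouse coloured by strain and phenotype, without removal of group means. The mPFC points run along a diagonal, the BNST points form a cluster with 2 D2 controls below it, and the vHPC points form no line.

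Single pairs of members differed between the regions in how closely they followed each other. In the mPFC the 28 pairs had r from 0.50 (Drd1 and Penk) to 0.96 (Drd2 and Adora2a), with a median of 0.84. In the BNST the 36 pairs ran from 0.01 (Tac1 and Six3) to 0.98 (Pde10a and Rgs9), with a median of 0.75. In the vHPC the 28 pairs ran from -0.64 (Tac1 and Pde10a) to 0.74 (Drd2 and Pde10a), with a median of 0.02. The member mean followed the mean of the 15 further projection neuron genes with r of 0.97 in the mPFC, 0.99 in BNST tissue and 0.62 in the vHPC. In the mPFC it also followed the cholinergic genes (0.89) and the oligodendrocyte genes (0.68), and it ran at -0.30 with the cortical excitatory genes. In the BNST it ran at -0.11 with the cholinergic genes, -0.47 with the oligodendrocyte genes and 0.92 with the signalling partners. In the vHPC it ran at 0.76 with the thalamic neuron genes, 0.67 with the choroid plexus and ependymal genes and 0.58 with the cortical excitatory genes, of which the former 2 exceed its value with the further projection neuron genes.

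The genes whose levels were most like the member mean over mice differed between the regions. In the mPFC, out of 15733 genes, they included Lrrc10b (r = 0.95), Adcy5 (0.94), Rxrg (0.92) and Rarb (0.91) over 32 mice, all of these on the list of further projection neuron genes. In the BNST, out of 14394 genes, they were Cpne5, Foxp1 and Actn1 (0.98) and Phactr1 and Pde1b (0.97) over 28 mice, of which Foxp1 and Pde1b are on that list. In the vHPC, out of 15989 genes, they were Prpsap1 (0.81), Zfp36l2 (0.80), Pcdhgb5 (0.78), Pear1 (0.78) and Cyp1b1 (0.77), none of them on a striatal list.

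For 7 mice both the mPFC and the vHPC had been sequenced. The C2 and D5 mice among them, high in the mPFC, were not set apart in the vHPC. Their mPFC member means of 4.76, 5.38, 5.12, 4.83 and 5.41 log2 CPM stood beside vHPC means of 2.8, 3.05, 3.1, 2.99 and 3.18, while the other 2 mice (C1 and D4) had mPFC means of 3.62 and 3.91 and vHPC means of 2.96 and 3.09. The highest B6 mouse of these by mPFC Drd2, at 2.38, had a vHPC Drd2 level of -0.57, and the highest D2 mouse, at 2.00, had 1.17.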

How the data were processed

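Sequenced RNA came from 88 libraries, 32 of the mPFC, 28 of the BNST and 28 of the vHPC. Per the study's methods, STAR placed the reads on GRCm38 after duplicate removal and HTSeq assigned them to exons. The deposited BNST table holds raw counts. For the mPFC and vHPC the deposited unit is log2 CPM after the authors' low-count filter, voom and a ComBat adjustment for library preparation (and, in the vHPC, sequencing) sets. Such an adjustment can move group differences where sets and groups overlap. Counting error is known for the BNST alone.

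Symbols were taken from GENCODE M21. In the BNST, 17515 genes reached 1 CPM in 6 or more libraries, and these were TMM-scaled and tested with edgeR 4.0.16 (quasi-likelihood). The other tables were tested with limma 3.58.1 (robust moderation), in R 4.3.3, with 1 mean per group over all libraries of a region. P values were two-sided, adjusted by Benjamini-Hochberg over all genes, and called under 0.05. Figures and summaries were made with Python 3.11.15. The fits were tested on simulated data. Alternatives included DESeq2 1.42.0, ComBat from sva 3.50.0, batch terms, filters and leaving out each library. All members are named, and of each further list up to 3 called genes with the largest change. The members and lists were chosen with earlier results of these data known.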

Additional observations from a re-analysis of the deposited data

Results flagged for a closer look

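Within groups of 4 to 10 mice, 117 combinations of a member and a group were examined for a mouse that stood apart, measured as its gap to the next mouse divided by the range of the group. In 14 of them (12%) the gap passed the 95% limit, which a single combination passes by chance in about 1 in 20. Members moved together between mice, so the combinations are not independent and no excess over chance can be read from this share.

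In the mPFC all 9 came from the 2 D5 mice, each the highest of its group. D2 control replicate 6 stood apart for Drd1 (5.36 log2 CPM, next 4.58, gap share 0.72), Ppp1r1b (5.76, next 5.07, 0.68), Pde10a (7.74, next 6.93, 0.74) and Rgs9 (5.52, next 4.13, 0.77). D2 susceptible replicate 7 stood apart for Tac1 (5.07, next 3.73, gap share 0.80), Drd2 (2.00, next 0.24, 0.54), Adora2a (3.42, next 1.66, 0.54), Penk (6.89, next 5.87, 0.57) and Rgs9 (5.89, next 4.46, 0.62).

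In the BNST, B6 susceptible replicate 3 was the highest of its group for Drd2 (8.54, next 7.47, gap share 0.73), Adora2a (8.06, next 6.34, 0.91) and Ppp1r1b (11.36, next 9.24, 0.89). B6 resilient replicate 5 was the lowest for Adora2a (6.41, next 7.09, gap share 0.80), and B6 resilient replicate 2 was the highest for Ppp1r1b (10.65, next 9.73, 0.81). No vHPC mouse stood apart by this measure.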

How the results depend on the processing

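No result changed its sign in a call under any alternative. With the library set as a covariate in the vHPC, members called went to 0 (from 1) for resilient against control B6 mice, to 1 (from 4) for susceptible against control B6 mice, to 0 (from 2) for susceptible against resilient B6 mice, to 1 (from 4) between control mice of the strains and to 0 (from 1) for susceptible against control D2 mice, and further list genes called went to 0 (from 3), 0 (from 9), 0 (from 7) and 3 (from 13) in the former 4. Fitting only the groups compared gave 1 member for susceptible against resilient B6 mice in the vHPC, and 1, 3, 1 and 3 further list genes for resilient against control B6, susceptible against resilient B6, susceptible against control D2 and the strain difference in response. The sequencing set as a covariate gave 0 and 4 further list genes in the former 2 of these, and a trend or quantile normalization gave 1 and 2 for the strain difference in response. For the same difference in the BNST, library sizes without TMM gave 1 member and 3 further list genes, and voom, ComBat and limma gave 2 and 4. For BNST strain controls DESeq2 gave 1 further list gene and voom, ComBat and limma gave 1. Without the C2 and D5 mice, mPFC strain controls gave 4 further list genes instead of 7. Direct against indirect members in the vHPC had r = 0.01 without removing group means. The causes of these shifts were not tested. Counts of the library set fit that involve B6 controls rest on 1 B6 control, and the count between the D2 groups on 1 D2 susceptible mouse.

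Leaving out each library in turn gave 1 to 4 members for mPFC strain controls, and in the vHPC 2 to 4 for susceptible against control B6 (2 without B6 susceptible replicate 2), 0 to 3 for susceptible against resilient B6, 4 to 5 between control mice of the strains and 0 to 1 for the strain difference in response. Further list genes ranged from 0 to 1 for BNST strain controls and for susceptible against control B6 in the mPFC, and in the vHPC from 0 to 3 for resilient against control B6, from 3 to 9 for susceptible against resilient B6 and from 0 to 1 for the strain difference in response. Where an arm was left with few mice, its spread was taken to be like that of the other groups. The strain comparisons could not be fitted with the identifier prefix as a covariate. No paired analysis was possible because, within a region, every mouse belonged to 1 group and the labels pair no mice across the groups compared.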
